A study of Mus musculus with 9 samples.

Results

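The transcripts described here are RNAs that RefSeq catalogues as noncoding and that an Agilent mouse array detected in J1 embryonic stem cells. They were chosen as the probes, other than control probes, whose accession begins with NR_ and whose signal the scanner software marked as well above background on 3 arrays or more. Of 55681 probes on the array, 1216 had such an accession. The probes of 7 named imprinted genes, 11 in all, were left out, and 682 of the remaining 1205 passed the filter, out of 37739 probes of all kinds that passed it. These 682 probes carried 602 accessions. A gene symbol was found for 627 of them, naming 552 genes, and 55 had none. By RefSeq type 444 probes belonged to long noncoding RNAs (lncRNAs), 156 to transcribed pseudogenes, 15 to genes that also encode a protein and 4 to small nuclear RNAs.

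J1 is a line of mouse embryonic stem cells of the strain 129S4/SvJae, here grown on gelatin in medium with 1000 U/mL of the cytokine LIF. The 3 groups, with 3 arrays each, received DMSO (the solvent), 3 µM CHIR99021 or 1 mM AICAR for 24 h. CHIR99021 inhibits the kinase GSK3, which activates Wnt/beta-catenin signalling, and AICAR is a nucleoside whose phosphorylated form mimics AMP and switches on AMPK, a kinase that senses cellular energy. All groups therefore share LIF, the line and the time point. Whether replicates came from separate cultures is not given in the labels. The p-values therefore measure how far these samples spread, which may be technical variation. Slides and scans held 1 group each, and their effect cannot be told apart from that of the group.

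Noncoding RNA is not one family. Small nucleolar RNAs (snoRNAs), which guide chemical modification of ribosomal RNA, are in mammals mostly cut from introns of longer host transcripts, many of which encode no protein. MicroRNAs are likewise cut from hairpins inside longer primary transcripts, and the seed near the 5′ end of the mature strand selects the mRNAs they repress. Other lncRNAs act in the nucleus, overlap coding genes on the opposite strand, or are copies of genes that no longer encode the protein. The array measures the long host transcripts and not the mature microRNAs. The labelling kit named in the labels primes from poly(A) tails, and RNAs without such tails are caught poorly.

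The microRNA hosts among the detected transcripts were found from the hairpins that lie within each gene's span in RefSeq, assembly GRCm38.p6. There were 10 probes for 8 such genes. D7Ertd143e spans 5 hairpins of the miR-290 to miR-295 cluster, the most abundant microRNA cluster of mouse embryonic stem cells. The table placed the hairpin of miR-92a in Mir17hg, the host of the miR-17 to miR-92 cluster. It placed those of miR-16, miR-22 and miR-9 in Dleu2, Mir22hg and Mir9-3hg. The mature strands below show what these hosts carry, 5′ to 3′ as in RefSeq, with bases 2 to 8, the seed, in capitals. miR-294-3p and miR-295-3p share a seed, and that of miR-291b-3p differs from it in the last base. The strand of miR-294-3p lies at chr7:3220691-3220712, that of miR-92a-3p at chr14:115044476-115044496, both on the plus strand, and that of miR-16-5p at chr14:61631936-61631957 on the minus strand.
miR-291b-3p (in D7Ertd143e): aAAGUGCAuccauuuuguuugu
miR-294-3p (in D7Ertd143e): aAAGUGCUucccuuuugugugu
miR-295-3p (in D7Ertd143e): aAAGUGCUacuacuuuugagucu
miR-92a-3p (in Mir17hg): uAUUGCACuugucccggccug
miR-16-5p (in Dleu2): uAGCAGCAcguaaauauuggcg
miR-22-3p (in Mir22hg): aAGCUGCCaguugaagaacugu
miR-9-5p (in Mir9-3hg): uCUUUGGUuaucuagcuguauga

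The snoRNA hosts are shown by the 50 bases around their annotated start (20 before the start, 30 from it on), because a run of pyrimidines at the first transcribed base marks many genes of the translation machinery, the snoRNA hosts included. The run searched for was a C followed by at least 4 pyrimidines (C or T), beginning within 5 bases of the annotated start on the sense strand. It was found in 7 of the 12 host genes with a promoter in the table (58.3%), in 20.5% of the 341 noncoding genes with a promoter there, and in 21.2% of all 27025 genes of the table. The sequences are from RefSeq, assembly GRCm38.p6, 5′ to 3′ on the gene's strand, and capitals mark the match. The first 4 genes have a match and the last 4 have none within this window.
Snhg12: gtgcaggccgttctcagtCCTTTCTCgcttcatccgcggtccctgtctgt
Snhg18: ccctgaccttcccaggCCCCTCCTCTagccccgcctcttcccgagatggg
2410006H16Rik: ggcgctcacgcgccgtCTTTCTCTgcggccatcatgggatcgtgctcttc
Snhg3: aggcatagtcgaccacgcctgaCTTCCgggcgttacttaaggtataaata
Snhg5: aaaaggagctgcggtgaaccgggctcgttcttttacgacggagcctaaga
Dancr: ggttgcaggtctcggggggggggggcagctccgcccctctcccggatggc
Snhg1: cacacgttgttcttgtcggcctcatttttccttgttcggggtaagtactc
Snhg17: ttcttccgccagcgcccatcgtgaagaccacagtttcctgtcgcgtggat

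Levels below are the processed signal as a percentage of the array's 75th percentile over all spots that are not controls, and a level of one probe is not set against that of another. Changes are log2 fold changes of the fit with limma, with their standard errors (SE) and 3 arrays per group. Probes whose Benjamini-Hochberg adjusted p in that fit, over all 37739 probes, was under 0.05 are called, as higher (rose) or lower (fell).

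The share of spots above background was 62.8% to 67.2% per array. Arrays of a group correlated at 0.995 to 0.996 across probes against 0.971 to 0.982 between groups. The Wnt targets T and Axin2 rose with CHIR99021 by 8.27 ± 0.23 (SE) and 5.12 ± 0.09 on the log2 scale. All 8 stem cell markers (Pou5f1, Sox2, Nanog, Zfp42, Esrrb, Dppa5a, Tdgf1 and Utf1) were well above background on all 9 arrays. Their changes went both ways. Esrrb rose by 0.73 ± 0.05 with CHIR99021 and 0.44 ± 0.05 with AICAR. Utf1 fell by -1.22 ± 0.06 and -1.16 ± 0.06, Tdgf1 fell with CHIR99021 by -0.60 ± 0.06, and Zfp42 fell with AICAR by -0.31 ± 0.08. Of 10 fibroblast markers, Postn, Lum and Fap were above background on 0 arrays. The summed level of the 10 was 214.7 to 230.4% in DMSO, 233.1 to 247.3% in CHIR99021 and 337.7 to 403.4% in AICAR. The members did not move together. With AICAR Thy1 and Pdgfrb rose by 0.91 ± 0.09 and 2.32 ± 0.07, and the collagen genes Col1a1 and Col1a2 fell by -0.51 ± 0.13 and -1.29 ± 0.06. Dcn, above background on 4 arrays, fell by -2.93 ± 0.45. The part of these markers in the results below was not tested. The median SD of the noncoding probes between arrays was 0.10 in DMSO, 0.11 in CHIR99021 and 0.14 in AICAR, against 0.08, 0.09 and 0.12 for all tested probes. On all 9 arrays 541 were above background, and 141 on 3 to 8 of them.

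With CHIR99021, 171 noncoding probes rose and 135 fell against DMSO, beside 27.5% higher and 20.1% lower over all tested probes. Together that is 44.9% of the 682, against 47.7% of all tested probes. A change of at least 2-fold was called for 21 higher and 37 lower (8.50%), against 7.67% of all tested probes (3.71% higher and 3.96% lower). The median change was 0.06, against 0.05 over all tested probes. Among the 541 above background everywhere, 13 rose and 26 fell at least 2-fold (7.21%), against 5.70% of all probes above background on the 9 arrays. Of the tested probes with a protein-coding accession, 51.4% were called. Scaling to the spike-in controls turned the split to 102 higher and 127 lower.

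With AICAR, 207 rose and 191 fell against DMSO, 58.4% of the 682 against 58.6% of all tested probes (28.8% higher and 29.8% lower). At least 2-fold changes numbered 67 higher and 52 lower (17.4%), against 12.9% (6.78% higher and 6.16% lower). The median change was 0.02 against 0.01. Of the 141 probes below background on some array, 30 were among the 67, and 12 were above background on the AICAR arrays alone and so had to differ. Among the 541 above background everywhere, 37 rose and 38 fell at least 2-fold (13.9%), against 10.1% of all probes above background on the 9 arrays. Spike-in scaling gave 225 higher and 122 lower and moved the median over all tested probes to 0.14.

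Between the treatments, 222 were higher with CHIR99021 and 171 were higher with AICAR, 57.6% against 58.8% of all tested probes (35.0% higher with CHIR99021 and 23.8% lower). Differences of at least 2-fold numbered 48 higher and 80 lower with CHIR99021 (18.8%), against 14.0% of all tested probes (5.81% higher and 8.15% lower). Among the 541 above background everywhere, 33 were higher and 46 lower (14.6%), against 10.9% of all probes above background on the 9 arrays. The split turned to 151 and 219 when the percentile was taken over probes above background on all 9 arrays, and to 106 and 213 under spike-in scaling. The median over all tested probes moved from 0.10 to -0.05 and to -0.09. Small differences between the treatments therefore have no settled direction, and the transcripts named below changed by more than these shifts unless stated. The counts by class that follow stand beside shares over all tested probes of 27.5% higher and 20.1% lower with CHIR99021, and 28.8% and 29.8% with AICAR. Their ranges are those over 5 other scalings and background settings.

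The microRNA hosts held some of the clearest responses to AICAR. Of the 10 probes, 3 rose and 4 fell with CHIR99021, and 2 rose and 6 fell with AICAR, with median changes of 0.00 and -0.63. The count of risers with CHIR99021 ranged from 1 to 2 under the other settings, and that of falls with AICAR from 5 to 6.

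Mir17hg stood at 619.8, 518.5 and 593.3% on the DMSO arrays, at 526.3, 546.4 and 525.4% with CHIR99021, and at 137.1, 124.1 and 136.7% with AICAR. All 3 AICAR arrays lay far below the other 6, and the DMSO and CHIR99021 arrays overlapped. The change with AICAR was -2.12 ± 0.08 (SE), adjusted p = 5.76e-07 by limma. With CHIR99021 it was -0.11 ± 0.08, adjusted p = 0.27.

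D7Ertd143e, the host of the miR-290 cluster, had 2 probes. The brighter probe read 2422.8, 2408.4 and 2564.9% with DMSO, 2665.2, 2784.8 and 2553.8% with CHIR99021, and 1366.7, 959.7 and 1152.2% with AICAR. The other read 363.1, 339.1 and 373.6%, then 411.1, 423.7 and 416.1%, then 67.0, 63.6 and 57.7%. At both probes the AICAR arrays were the lowest and did not overlap with the others. The falls with AICAR differed in size, by -1.10 ± 0.12 and -2.51 ± 0.07, with adjusted p of 0.000108 and 1.9e-07 by limma. With CHIR99021 the probes gave 0.11 ± 0.12 (adjusted p = 0.462 by limma) and 0.22 ± 0.07 (adjusted p = 0.0292). The latter call was lost under 4 of the 5 other settings (0.14 to 0.16), with the replicate block, and without any one of 5 single arrays (0.18 to 0.23).

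Dleu2, which carries the miR-16 hairpin, moved the other way. It read 21.9, 22.8 and 20.9% with DMSO, 52.4, 51.5 and 50.9% with CHIR99021 and 29.4, 25.2 and 26.9% with AICAR. No 2 groups overlapped, and the CHIR99021 arrays were highest. The rise was 1.24 ± 0.07 with CHIR99021 (limma, adjusted p = 5.7e-06) and 0.31 ± 0.07 with AICAR (adjusted p = 0.00473). The coding gene Trim13, which overlaps Dleu2 on the opposite strand, fell with CHIR99021 by -0.41 ± 0.07 and gave -0.08 ± 0.07 with AICAR. Kcnrg, which overlaps it likewise, gave -0.09 ± 0.12 with CHIR99021 and fell with AICAR by -1.04 ± 0.12.

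Mir9-3hg and Mir22hg, whose microRNAs are known from neurons and from muscle and blood cells, fell with both treatments. Mir9-3hg read 20.1, 20.1 and 17.8% with DMSO, 9.42, 9.29 and 9.89% with CHIR99021 and between 10.3 and 11.7% with AICAR. Both treated groups lay below all DMSO arrays, with changes of -1.02 ± 0.07 and -0.83 ± 0.07. Mir22hg changed by -0.83 ± 0.11 and -0.44 ± 0.11, and the fall with AICAR was not called under spike-in scaling. The comparisons with DMSO share its 3 arrays. 6430411K18Rik, whose span holds 1 hairpin, fell by -1.02 ± 0.11 with CHIR99021 and by -1.04 ± 0.11 with AICAR.

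**Figure D1:**
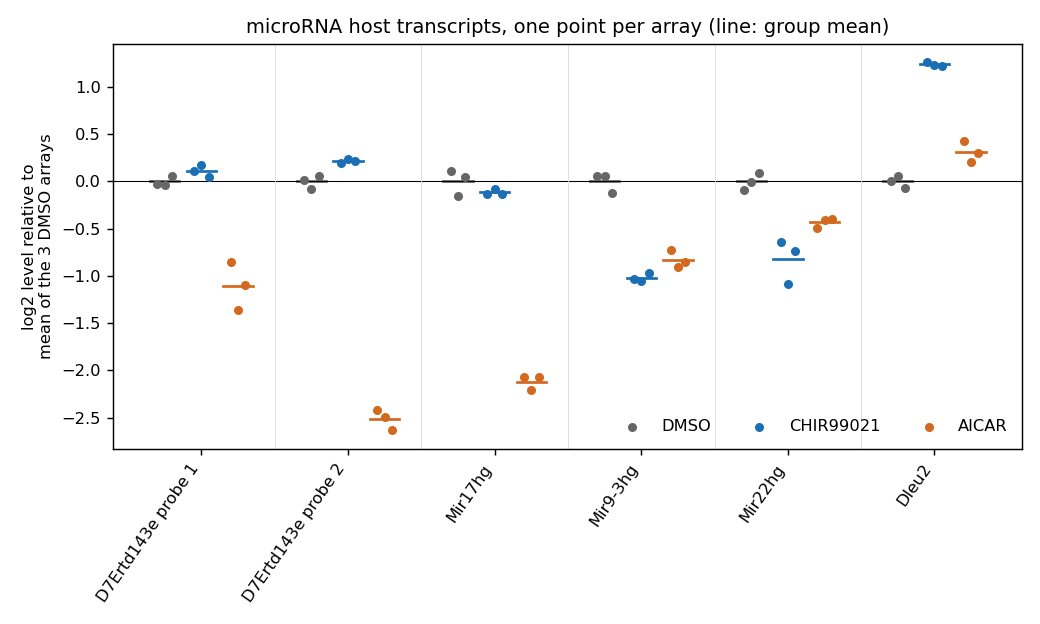
MicroRNA host transcripts, with the log2 level of each array relative to the mean of the 3 DMSO arrays on the vertical axis and 1 probe per column; points are arrays, coloured by group, and short lines are group means. The AICAR points of Mir17hg and of both D7Ertd143e probes lie below all others (-2.12, -1.10 and -2.51), and the CHIR99021 points of Dleu2 lie highest (1.24).

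The snoRNA hosts divided into those that fell with AICAR and those that did not. Of 12 probes for 11 listed host genes, 6 rose and 2 fell with CHIR99021, and 3 rose and 7 fell with AICAR. The median change was 0.09 with CHIR99021 and -0.65 with AICAR, against 0.05 and 0.01 over all tested probes. The count of 7 lower with AICAR was the same under each of 5 other scalings and background settings, whereas the count of risers with CHIR99021 ranged from 4 to 6 there. The fall with AICAR depended on how hosts were chosen. Taken instead by a curated snoRNA within the RefSeq span, predicted ones not counted, 11 probes gave 4 higher and 5 lower with AICAR. Their median was -0.0, and -0.06 to 0.18 under the other settings. The listed hosts Snhg5 and Snhg17, which fell with AICAR, were not found by this search, so it may miss hosts. With CHIR99021 7 of these 11 rose and 1 fell, with a median of 0.30.

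Snhg5 moved most. It read 209.2, 215.4 and 200.6% with DMSO, 360.8, 346.5 and 359.9% with CHIR99021, and 67.4, 70.3 and 80.7% with AICAR. The 3 groups were separate, CHIR99021 above and AICAR below DMSO. The changes were 0.77 ± 0.07 (limma, adjusted p = 9.66e-05) and -1.52 ± 0.07 (adjusted p = 1.79e-06), and CHIR99021 exceeded AICAR by 2.29 ± 0.07.

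Dancr, known as a noncoding RNA that holds back differentiation, read 619.2, 591.7 and 641.3% with DMSO, 545.4, 583.5 and 565.8% with CHIR99021 and 285.6, 294.2 and 272.1% with AICAR. The AICAR arrays stood apart below the rest. It fell with AICAR by -1.12 ± 0.06, and the change with CHIR99021 was -0.13 ± 0.06 (adjusted p = 0.0939 by limma). Snhg17 fell with AICAR by -0.99 ± 0.08, and the 2 probes of Snhg16 by -0.82 ± 0.12 and -0.60 ± 0.05.

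Snhg1 and Snhg3 moved in opposite directions with the treatments. Snhg1 read 486.2, 472.1 and 480.9% with DMSO, 554.4, 541.2 and 533.2% with CHIR99021 and 290.2, 286.5 and 291.9% with AICAR. Its 3 groups did not overlap. The fall with AICAR was -0.73 ± 0.04 and the rise with CHIR99021 0.18 ± 0.04, small enough to lose its call under spike-in scaling and when the percentile was taken over probes above background on all 9 arrays. Snhg3 changed by 0.30 ± 0.07 and -0.70 ± 0.07, and its rise was not called under spike-in scaling.

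The remaining hosts did not fall with AICAR. Snhg6 rose by 0.42 ± 0.06 with CHIR99021 and 0.36 ± 0.06 with AICAR, and Snhg18 by 0.52 ± 0.05 and 0.42 ± 0.05. Snhg12 rose with CHIR99021 by 0.35 ± 0.06 and gave 0.09 ± 0.06 with AICAR (adjusted p = 0.241 by limma). Snhg7 fell with CHIR99021 by -0.37 ± 0.05, with 409.6, 372.3 and 388.8% against 507.4, 492.8 and 506.6% in DMSO. Its rise with AICAR, 0.16 ± 0.05, had an adjusted p of 0.0375 by limma and lost its call without any one of 6 single arrays (0.13 to 0.17), among them each DMSO array. Snhg10 gave -0.19 ± 0.06 with CHIR99021, a call lost under spike-in scaling, with the replicate block, and without any one of 5 single arrays (-0.21 to -0.13). It was at 0.01 ± 0.06 with AICAR. Outside the list, 2410006H16Rik and 1110038B12Rik, whose RefSeq spans hold a snoRNA, rose with CHIR99021 by 0.65 ± 0.05 and 0.48 ± 0.06. 2410006H16Rik rose with AICAR too, by 0.45 ± 0.05, and 1110038B12Rik was at 0.00 ± 0.06, which quantile normalization turned into a called rise of 0.18.

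**Figure D2:**
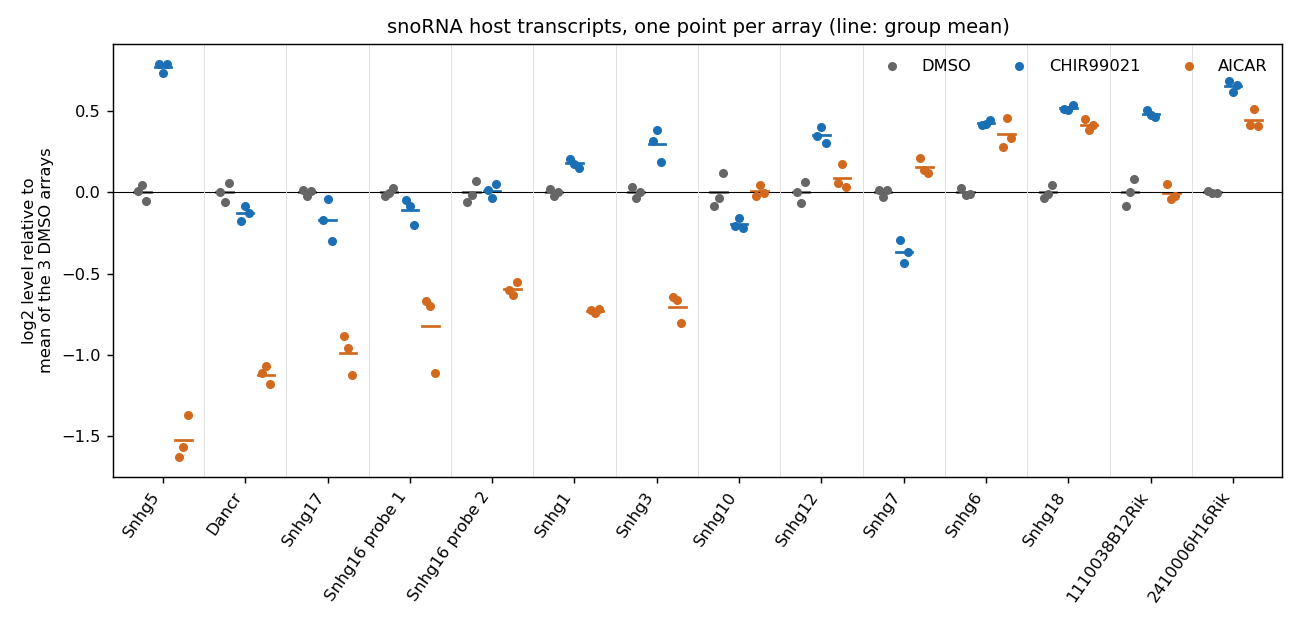
Host transcripts of snoRNAs, with the log2 level of each array relative to the mean of the 3 DMSO arrays on the vertical axis and 1 probe per column; points are arrays, coloured by group, and short lines are group means. AICAR points lie well below 0 from Snhg5 to Snhg3 (-1.52 to -0.60) and near or above 0 for the other 7 probes.

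The start sequences printed above were set beside these changes as a description. All 5 hosts without a pyrimidine run in the window fell with AICAR (Dancr, Snhg1, Snhg16, Snhg17 and Snhg5), against 1 of the 7 with one (Snhg3), and 3 of the 7 rose. This depended on the window, since 5 bases is close to the uncertainty of an annotated start. Within 15 bases, a window chosen after the sequences were seen, 10 of 12 hosts had a run, as did 44.9% of all genes of the table. Then 4 of the 10 with a run fell and 2 of the 2 without. Among ribosomal protein genes, the 5-base search found a run in 46.9% of 32 on the plus strand. On the minus strand it found one in 52.4% of 21. A missing match therefore does not show that a start lacks such a run.

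The protein-coding side of the same pathway was read from a list of 20 genes of ribosome and snoRNP assembly, such as Ncl, Fbl, Nop56 and Dkc1. With AICAR 17 of the 20 fell and 1 rose, with a median of -0.54, and with CHIR99021 6 rose and 0 fell, with a median of 0.10. Between the treatments 19 of 20 were higher with CHIR99021, against 35.0% of all tested probes. The counts of this list were not repeated under the other scalings.

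Small structured RNAs, most of which lack a poly(A) tail, had 9 probes. With CHIR99021 1 rose and 2 fell, and with AICAR 0 rose and 2 fell, which became 4 with normexp background correction. Snora74a, a snoRNA, read 273.4, 267.3 and 289.7% with DMSO, 239.6, 231.3 and 223.2% with CHIR99021 and 66.8, 77.5 and 66.1% with AICAR. The AICAR arrays were lowest without overlap, and the changes were -0.26 ± 0.07 and -1.98 ± 0.07. The fall with CHIR99021 lost its call without DMSO replicate 3 (-0.22), CHIR99021 replicate 2 (-0.26) or CHIR99021 replicate 3 (-0.23). Snora47 fell by -0.80 ± 0.13 and -1.06 ± 0.13. Rnu12, the U12 RNA of the minor spliceosome, rose with CHIR99021 by 0.43 ± 0.06. Rmrp, the RNA of RNase MRP, gave 0.14 ± 0.08 and -0.14 ± 0.08, and Terc, the telomerase RNA, 0.20 ± 0.16 and 0.07 ± 0.16, and neither was called against DMSO.

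Among lncRNAs linked to the pluripotent state, 0 rose and 4 fell with CHIR99021 and 3 rose and 5 fell with AICAR, of 11 probes. The median changes were -0.33 and -0.06. The falls with CHIR99021 ranged from 4 to 6 under the other settings, with medians of -0.41 to -0.09, and the counts with AICAR stayed at 3 and 5. The list includes the Platr genes, named as pluripotency-associated transcripts, and Eprn (Ephemeron), which is known from the exit from naive pluripotency. It also holds Gm15441 and Dancr. The fall of Dancr with AICAR, counted above with the snoRNA hosts, is among the 5 here.

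Eprn read 212.7, 215.3 and 206.0% with DMSO, 71.3, 74.6 and 75.8% with CHIR99021, and 36.7, 36.8 and 40.4% with AICAR. The groups were separate, with DMSO highest and AICAR lowest. The changes were -1.52 ± 0.06 (limma, adjusted p = 9.8e-07) and -2.48 ± 0.06 (adjusted p = 1.07e-07).

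Platr21 and Platr5 had the same order. Platr21 read 128.1, 125.9 and 131.3%, then 57.1, 59.8 and 64.4% with CHIR99021 and 33.4, 29.6 and 30.8% with AICAR, changes of -1.09 ± 0.07 and -2.04 ± 0.07. Platr5 read 92.3, 86.2 and 97.6%, then 55.1, 64.1 and 56.4% and 18.9, 17.7 and 17.5%, changes of -0.65 ± 0.08 and -2.35 ± 0.08. In neither did any 2 groups overlap.

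Platr8 was not well above background on any AICAR array, and its fall there is at least 7.34-fold. The bound sets the DMSO mean against the higher of the probe's own signal and the lowest signal well above background on each AICAR array. With CHIR99021 it read 9.41, 9.43 and 7.83%, below the lowest DMSO array at 10.3%, a change of -0.33 ± 0.41 (adjusted p = 0.544 by limma). The fit takes 1 spread over the 3 groups, so this SE and p also reflect the AICAR arrays at background. Not all Platr genes fell. Platr14 rose with AICAR by 0.75 ± 0.07 and both probes of Platr26 by 0.39 ± 0.06 and 0.40 ± 0.07, while Platr4 fell with CHIR99021 alone by -0.82 ± 0.12, its change with AICAR being 0.05 ± 0.12.

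The widely expressed lncRNAs Malat1, Neat1, Tug1, Norad and Pvt1 had 11 probes, of which 2 rose and 4 fell with CHIR99021 and 1 rose and 5 fell with AICAR. Spike-in scaling gave 2 higher and 3 lower with AICAR. Malat1, of nuclear speckles, read 250.2, 240.7 and 279.8% with DMSO, 189.9, 183.7 and 170.5% with CHIR99021, and 216.9 and 222.0% on the AICAR arrays that gave a value, the third being left out as an outlier spot. DMSO and CHIR99021 did not overlap, with a change of -0.50 ± 0.07, and AICAR gave -0.22 ± 0.08 (adjusted p = 0.054 by limma). Neat1, the scaffold of paraspeckles, was at 0.00 ± 0.06 with CHIR99021 and fell by -0.20 ± 0.06 with AICAR, a call lost under 4 of the 5 other settings (-0.13 to -0.08) and without DMSO replicate 1 (-0.18).

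Pvt1, the neighbour of Myc, read 190.3, 185.5 and 169.8% with DMSO, 252.6, 265.7 and 240.4% with CHIR99021, and 126.0, 140.8 and 154.4% with AICAR at its brighter probe. CHIR99021 was highest and AICAR lowest, without overlap. The rise with CHIR99021 was 0.48 ± 0.09, and 0.42 ± 0.07 at the second probe. The fall with AICAR, -0.38 ± 0.09, was not seen at the second probe (0.08 ± 0.07) and lost its call under spike-in scaling. The probes of Norad disagreed. With AICAR 1 of 4 fell by -0.64 ± 0.10, another rose by 0.30 ± 0.07 and 2 were not called. Of 59 symbols with several probes, 3 had probes called in both directions with CHIR99021 and 3 with AICAR. The same held with AICAR for an accession without a symbol in the table, NR_002840. Its 3 probes gave 0.27 ± 0.05, -1.04 ± 0.06 and -1.18 ± 0.08 with AICAR, and 0.92 ± 0.05, 0.31 ± 0.06 and 0.02 ± 0.08 with CHIR99021.

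Of the listed X-linked noncoding RNAs only Ftx, of the X inactivation centre, passed the filter, while the probes of Xist and Jpx, of the same centre, and of Firre, which lies outside it, did not. The brighter probe of Ftx gave 0.28 ± 0.09 with CHIR99021 and 0.27 ± 0.09 with AICAR, with adjusted p of 0.0333 and 0.0329 by limma. The call with CHIR99021 was lost under all 5 other settings (0.12 to 0.22) and that with AICAR under 3 of them (0.09 to 0.16). Both were lost with the replicate block and without DMSO replicate 1 (0.25 and 0.23). They were also lost without DMSO replicate 2, and in each comparison without 2 of the 3 treated arrays. The Hox cluster transcripts Hoxa11os and Gm53 rose with CHIR99021 by 0.70 ± 0.07 and 0.60 ± 0.10. Hoxa11os read 12.1, 13.8 and 14.0% against 8.02, 8.19 and 8.31% in DMSO and 8.54, 8.54 and 7.84% with AICAR.

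Named opposite-strand and antisense RNAs went both ways. Of 33 probes, 10 rose and 8 fell with CHIR99021, and 12 rose and 6 fell with AICAR, with medians of 0.20 and 0.02. Risers with CHIR99021 ranged from 5 to 10 and falls from 6 to 9 under the other settings, and spike-in scaling turned the split to 5 higher and 8 lower. Nphs1os fell with both, by -1.47 ± 0.13 and -1.05 ± 0.13. Rab10os rose with CHIR99021 by 0.41 ± 0.10 and fell with AICAR by -1.39 ± 0.10. Med9os gave -0.56 ± 0.13 with CHIR99021, a call lost with normexp background correction (-0.08), and rose with AICAR by 1.69 ± 0.13, and Vax2os rose with AICAR by 1.16 ± 0.09.

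**Figure D3:**
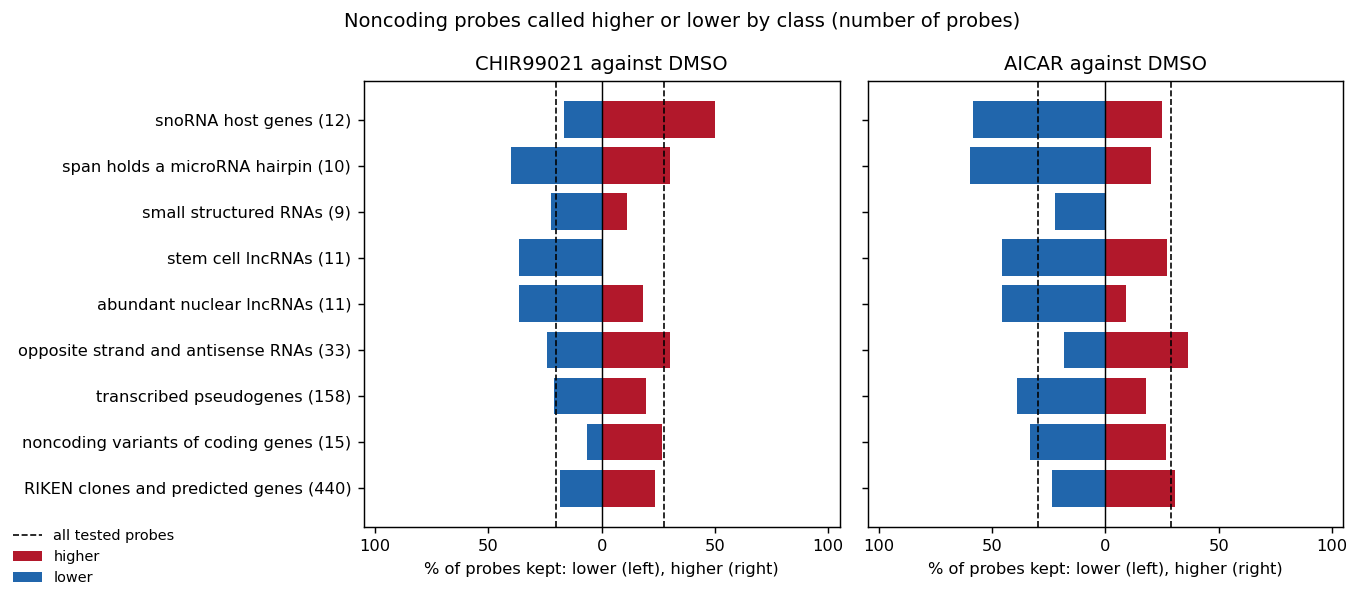
Share of probes called lower (blue, left) and higher (red, right) in each class of noncoding RNA, in % of the probes kept in that class (their number in brackets), for CHIR99021 against DMSO and AICAR against DMSO; dashed lines are the shares over all tested probes. With AICAR 7 of 12 snoRNA host probes and 62 of 158 pseudogene probes were lower, against 29.8% of all tested probes.

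Transcribed pseudogenes were the second largest class, and a probe for one may also bind the mRNA of the parent gene. Of 158 probes, 31 rose and 33 fell with CHIR99021, with a median of 0.03. With AICAR 28 rose and 62 fell, with a median of -0.14, and the count of falls ranged from 28 to 55 under the other scalings and background settings. Also named, for a bright signal, were Gm8580, Gm5523, Gm12070 and Gm6548, all pseudogenes, and Rn4.5s. None of the 5 was called with CHIR99021, while Gm8580 and Gm6548 fell with AICAR by -0.29 ± 0.05 and -0.31 ± 0.06, calls lost under quantile normalization and spike-in scaling.

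The deepest fall of a transcript above background everywhere was that of Zscan4a, which RefSeq types as a transcribed pseudogene. The Zscan4 family marks the few embryonic stem cells in a state like the 2-cell embryo, and its near-identical copies may share the probes. One probe read 168.6, 164.5 and 166.8% with DMSO, 99.4, 91.8 and 96.8% with CHIR99021, and 14.3, 11.7 and 11.1% with AICAR. The groups did not overlap. The changes were -0.80 ± 0.09 and -3.76 ± 0.09 (limma, adjusted p = 0.00029 and 1.34e-07), and the second probe gave -0.71 ± 0.08 and -3.74 ± 0.08. In bulk RNA, fewer cells of a kind and less RNA per cell cannot be told apart. The pseudogene Defa-ps1 fell with AICAR by -2.25 ± 0.11.

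Noncoding variants of coding genes had 15 probes, of which 4 rose and 1 fell with CHIR99021 and 4 rose and 5 fell with AICAR. Spike-in scaling left 2 rises with CHIR99021 and 1 fall with AICAR. Such a probe may bind the coding transcript. 1810020O05Rik had the largest change of the 15, from 16.6, 16.9 and 17.1% in DMSO to 90.4, 87.2 and 98.0% with AICAR, without overlap. The rise was 2.45 ± 0.07 (limma, adjusted p = 1.99e-07), and CHIR99021 gave 0.17 ± 0.07 (adjusted p = 0.0679).

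Transcripts known by a clone or prediction number made up 440 of the 682 probes, and 104 rose and 81 fell with CHIR99021 and 135 rose and 103 fell with AICAR. Spike-in scaling turned the split with CHIR99021 to 63 higher and 74 lower and gave 146 and 60 with AICAR, and with normexp CHIR99021 gave 129 and 57. The largest rise with CHIR99021 among those above background everywhere was that of 1700097N02Rik, a lncRNA. It read 1583.7, 1549.2 and 1565.7% with DMSO, 8199.2, 8813.6 and 8597.5% with CHIR99021, and 950.4, 950.0 and 929.6% with AICAR. The 3 groups were separate, and AICAR was below DMSO. The changes were 2.45 ± 0.05 (limma, adjusted p = 6.17e-08) and -0.73 ± 0.05 (adjusted p = 6.99e-06).

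Several transcripts of this kind fell with CHIR99021 and rose with AICAR. AU015836 read 18.0, 15.8 and 17.6% with DMSO, 6.12, 6.15 and 6.56% with CHIR99021 and 43.6, 43.6 and 41.2% with AICAR at its brightest probe. No groups overlapped, with changes of -1.44 ± 0.06 and 1.33 ± 0.06. The second of its 3 probes gave -1.50 ± 0.09 and 1.39 ± 0.09. 6720483E21Rik changed by -1.04 ± 0.19, a call lost with normexp (-0.17), and 2.06 ± 0.19, and Gm3002 by -0.92 ± 0.07 and 1.16 ± 0.07. 2810410L24Rik did not share this pattern, since its 2 probes gave 0.08 and 0.38 with CHIR99021. It rose with AICAR by 2.94 ± 0.14 at 1 of them and gave 0.16 ± 0.08 at the other (adjusted p = 0.133 by limma). Gm1141 went the other way from AU015836, with 0.99 ± 0.22 and -1.64 ± 0.22.

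**Figure D4:**
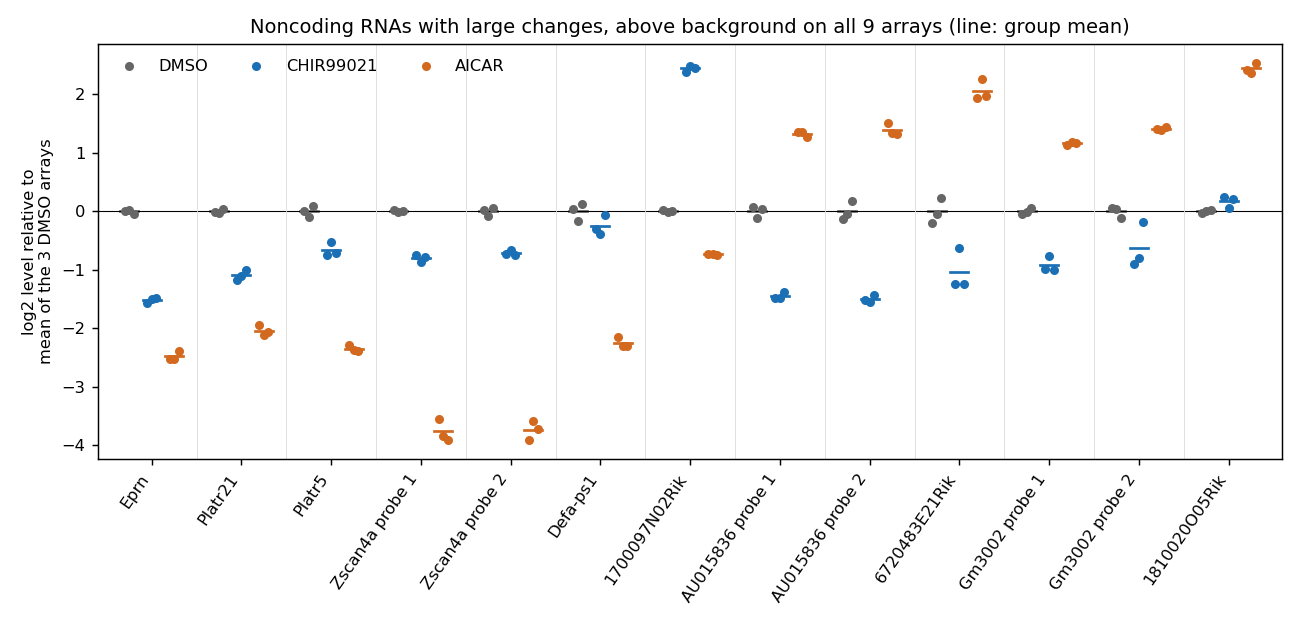
Noncoding RNAs with large changes that were above background on all 9 arrays, with the log2 level of each array relative to the mean of the 3 DMSO arrays on the vertical axis and 1 probe per column; points are arrays, coloured by group, and short lines are group means. Eprn, Platr21, Platr5 and Zscan4a step down from DMSO to CHIR99021 to AICAR, while AU015836, 6720483E21Rik and Gm3002 have CHIR99021 below and AICAR above DMSO.

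Dim transcripts that were above background in part of the groups are given as bounds. Smkr-ps was at least 7.43-fold higher with CHIR99021 and at least 4.08-fold higher with AICAR than with DMSO, where no array was above background. AI847159 and Gm48957 were at least 3.28-fold and 3.44-fold lower with CHIR99021, and both were called lower with AICAR too. 9530059O14Rik was called higher with both treatments and was at least 5.30-fold higher with AICAR. 2610028E06Rik was at least 3.92-fold higher there, and Flicr and Kis2 at least 2.52-fold and 2.40-fold lower.

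Noncoding RNAs that start beside a coding gene were compared with that gene. In RefSeq 64 of them had a coding start on the opposite strand, with at most 1000 bases between the starts or 200 of overlap. Among the 64 are Tmem80, Zfp672 and Ccl25, genes that also encode a protein, so these pairs may set 2 coding genes side by side. Tmem80 counts among the same-way pairs below with both treatments, and Zfp672 among those with AICAR. With CHIR99021 both partners were called in 14 pairs, in 13 of which they moved the same way. 1700097N02Rik and Dnah8, a gene of a ciliary dynein, rose by 2.45 ± 0.05 and 1.85 ± 0.07. Snhg18 and Sema5a, a guidance molecule, rose by 0.52 ± 0.05 and 1.86 ± 0.11. The exception was C030016D13Rik, up by 0.58 ± 0.09, beside Pum3, at -0.23 ± 0.07.

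With AICAR both were called in 27 pairs, and they moved the same way in 10 and opposite ways in 17. In each of the 17 the noncoding RNA was the partner that rose, Gm5577 being above background on the AICAR arrays alone. The coding partner fell in most of the 10 same-way pairs too, so opposite pairs left little room for the other order. Of all tested probes with a protein-coding accession, 29.9% rose and 34.1% fell with AICAR. C030016D13Rik rose by 1.86 ± 0.09 beside Pum3, a ribosome assembly factor, at -0.76 ± 0.07, and Gm4532 rose by 1.32 ± 0.07 beside Zfp553 at -0.65 ± 0.05. BC037704 rose by 1.53 ± 0.13 beside Slc25a28, a mitochondrial iron carrier, at -0.39 ± 0.08. Tug1 and Morc2a both fell, by -0.49 ± 0.07 and -0.53 ± 0.05. Across the 64 pairs Pearson's r was 0.42 and Spearman's rho 0.40 with CHIR99021, and both were 0.09 with AICAR, on shared arrays. Whether the treatments differ in this respect was not tested. The counts of these pairs, and of the overlapping pairs below, were not repeated under the other scalings. Some coding calls with AICAR were small, such as Ankrd17 at -0.14 ± 0.05 and Tpt1 at -0.17 ± 0.05. Spike-in scaling moved the median over all tested probes with AICAR to 0.14, so the splits may depend on the scaling.

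**Figure D5:**
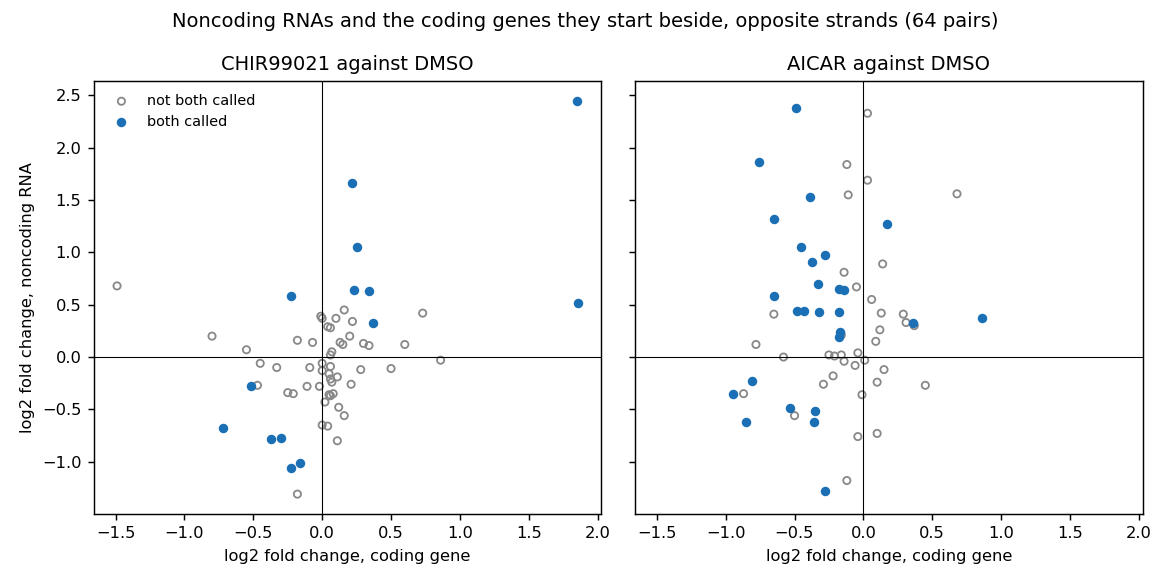
Log2 fold changes of 64 noncoding RNAs (vertical axis) against those of the coding genes that start beside them on the opposite strand (horizontal axis), with CHIR99021 and with AICAR against DMSO; filled points are pairs with both partners called. With CHIR99021 13 of 14 filled points lie in the lower left or upper right, and with AICAR 17 of 27 lie in the upper left.

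Pairs that overlap on opposite strands numbered 95, with 86 noncoding RNAs, and 25 of them are also among the 64 above. Tmem80 and Zfp672, which also encode a protein, are again included. Of the 95, both partners were called in 23 with CHIR99021, 16 the same way and 7 opposite. With AICAR they were called in 35, 19 the same way and 16 opposite. G630025P09Rik and Tmem102 rose with CHIR99021 by 1.10 ± 0.06 and 1.21 ± 0.07. Gm15401 rose by 0.92 ± 0.22 while Tcf7l1, a repressor of Wnt targets, fell by -1.04 ± 0.09.

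The promoters of the noncoding genes, 250 bases before to 50 after the start, were searched on both strands for CTTTGAT, a core of TCF/LEF sites. It was present in 8 of 92 genes that rose with CHIR99021 (8.70%), in 1 of 62 that fell (1.61%), in 4.99% of the 341 noncoding genes and in 4.29% of all genes of the table. Among the 8 were AI646519, which rose by 1.16 ± 0.05, and 4930520O04Rik, by 1.24 ± 0.23. CTTTGAT was also present in 8 of 117 genes that rose with AICAR (6.84%) and in 4 of 80 that fell. A second sequence, CACGTG, was searched in the same promoters. It was present in 14 of 92 genes that rose with CHIR99021 (15.2%) and in 3 of 62 that fell (4.84%). Its share was 10.3% of the 341 noncoding genes and 8.09% of all genes of the table. The higher share among risers with CHIR99021 was therefore not particular to CTTTGAT. These are matches of letters and not binding sites.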

How the data were processed

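Total RNA of 9 samples was hybridised to 1-colour Agilent arrays with the dye Cy3. The deposited scanner files hold linear intensity values per spot. They come, per the file headers, from Agilent Feature Extraction 10.7.3.1, which gives a processed signal. The deposited series matrix holds log2 values per probe with unstated centring, used only as an alternative. The level used was the log2 processed signal, from which the array's own 75th percentile over 59305 spots was subtracted. Outlier spots were left out, spots of a probe were averaged, and no array column lacked a sample.

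Probes well above background on at least 3 arrays entered 1 linear model of limma 3.58.1 (lmFit, eBayes; R 4.3.3), all 9 arrays together, each probe a feature, with Benjamini-Hochberg adjustment at 0.05. Fits were tested on simulated data. Names, gene types, neighbours and sequences came from RefSeq tables of assembly GRCm38.p6. The file headers name build mm9, so the coordinates given are RefSeq's. Of the 552 genes, 341 had a promoter in the table. The precision is limited by the number of arrays.

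Genes named were 28 listed noncoding RNAs where detected, and the largest 8 rises and 8 falls against DMSO and 5 and 5 between treatments, as fitted and without overlap of groups. Added were up to 4 called members per class, the 5 brightest, and up to 5 each called in the same or in opposite directions with both treatments. Genes of the pairs and promoter matches, Platr14, Platr26, 2810410L24Rik, Snhg10 and Snhg17 were in part chosen after their values were seen. Members, lists and the rule were chosen with earlier results of these data known. Of the 28, Xist, Jpx, Firre and Evx1os did not pass the filter, and 11 had no probe matched by symbol to a noncoding accession. They may be among the 55 probes without a symbol, so a gene missing here was not necessarily unmeasured. Mirt1, on the list of microRNA hosts, spans no hairpin in RefSeq and was not counted with them. The planned normexp correction on mean signals used median signals, the ones in the files, with an offset of 50. Alternatives also covered normalization, scaling, filters, probe choice, the fit and each replicate left out. Replicate numbers did not pair the samples.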

Additional observations from a re-analysis of the deposited data

How the results depend on the processing

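The counts of called noncoding probes stayed within 1.5 times the reported ones under the alternatives tried, except under spike-in scaling. There, 102 probes were higher with CHIR99021 against DMSO, 122 were lower with AICAR against DMSO, and 106 were higher with CHIR99021 against AICAR. Without single replicates, CHIR99021 against DMSO gave 262 to 316 called (149 to 180 higher, 107 to 140 lower). AICAR against DMSO gave 349 to 397 (177 to 204 higher, 167 to 193 lower), and CHIR99021 against AICAR 355 to 386 (194 to 214 higher, 159 to 173 lower). The replicate numbers do not pair the samples, and deviations of same-numbered arrays correlated at -0.05 to 0.08. With the replicate block 166 rose and 124 fell with CHIR99021, 198 and 186 with AICAR, and 213 were higher and 168 lower with CHIR99021 against AICAR.

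Of 264 values of named genes, 7 changed sign under an alternative. With CHIR99021 against DMSO, Gm14164 went to 0.00 with normexp. With AICAR against DMSO, 1110038B12Rik went to 0.18 with quantile normalization and with the series matrix values. Between the treatments, Snhg6 went to -0.16 in both. 2410006H16Rik went to 0.00 and -0.01, Gm5523 to -0.14 and -0.16, and Gm12070 to -0.14 with the series matrix values. 1810034E14Rik went to 0.04 with normexp. Normexp, whose offset draws dim probes toward 0, gave a smaller change for 223 of the 264, and the cause of the other shifts was not tested. A call was lost under at least 1 alternative for 49 of 198 called values. The slide as a block could not be fitted, since no slide held more than 1 group. Dim probes limit what can be measured: 523 of 1205 candidate probes did not pass the filter and 422 were above background on 0 arrays.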
